A study of Homo sapiens with 27 samples.

Results

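The epidermal growth factor (EGF) receptor family is described here in 3 human prostate cancer cell lines through 10 genes: the receptors EGFR, ERBB2, ERBB3 and ERBB4, the ligands AREG, EREG, HBEGF, TGFA and BTC, and the receptor inhibitor ERRFI1. The genes were chosen by symbol, as a family, with earlier results of these data known. All 10 were listed in each of the 3 count tables, among 20089 symbols that the tables shared. RNA sequencing of total RNA covered 27 libraries from 22Rv1, DU145 and PC3 cells, with 9 libraries per line. The control group of every line carried control gRNA 1 (genotype WT in the labels, 3 libraries). The RIPK2 knockout groups of 22Rv1 carried gRNA 1 or gRNA 10, and those of DU145 and PC3 carried gRNA 2 or gRNA 10, again with 3 libraries each. The guide that is not gRNA 10 is called the first guide of its line. The labels name no drug or ligand treatment. The labels do not say whether a knockout population is 1 clone or a pool, nor whether the 3 libraries of a group came from separate cultures, so the tests measure the spread between these libraries, which may be technical. RIPK2 is a kinase that carries signals from the bacterial sensors NOD1 and NOD2, and the comparison asks what its loss does to the transcripts of each line.

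The 4 receptors are membrane tyrosine kinases that pair up after a ligand binds. The products of AREG, TGFA, EGF and EPGN bind EGFR, and those of HBEGF, BTC and EREG bind EGFR and ERBB4. The neuregulins bind ERBB4, and only some of them also bind ERBB3. ERBB2 has no known ligand of its own and ERBB3 has a weak kinase, so both signal mainly in pairs with the other receptors. The ligands are made as membrane precursors and are released by proteases such as ADAM17, and active receptors signal through RAS and the MAP kinase cascade. That cascade raises transcripts of several ligands and of ERRFI1 (also called MIG6), an inhibitor that binds the kinase domain of the receptors. In prostate epithelium EGFR ligands act as growth factors.

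On GENCODE 29 (GRCh38), 3 of the 5 ligands lie side by side on chromosome 4. EREG spans chr4:74365143-74388751 (+ strand), AREG chr4:74445134-74455009 (+) and BTC chr4:74744759-74794686 (-). The ligand EPGN precedes them at chr4:74308473-74315307 (+), and 0 other protein-coding genes lie between the neighbours of this row of 4. The other members lie apart, with EGFR at chr7:55019021-55211628 (+), ERBB2 at chr17:39687914-39730426 (+), ERBB3 at chr12:56076799-56103505 (+), ERBB4 at chr2:211375717-212538841 (-), HBEGF at chr5:140332843-140346631 (-), TGFA at chr2:70447280-70554193 (-) and ERRFI1 at chr1:8004404-8026308 (-). All 10 are protein-coding. The 150 bases before the RefSeq start (GRCh38.p14) of the 3 neighbouring ligands are shown because these genes lie side by side and their levels differ by line and guide in the values given further on. Each is written 5′ to 3′ on the strand of its gene, at chr4:74444986-74445135 for AREG, chr4:74364995-74365144 for EREG and chr4:74794524-74794673 for BTC, with matches to the motifs searched in capitals.
AREG: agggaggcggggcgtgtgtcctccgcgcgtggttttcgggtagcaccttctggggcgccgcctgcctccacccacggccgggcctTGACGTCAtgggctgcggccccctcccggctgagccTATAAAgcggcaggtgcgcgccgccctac
EREG: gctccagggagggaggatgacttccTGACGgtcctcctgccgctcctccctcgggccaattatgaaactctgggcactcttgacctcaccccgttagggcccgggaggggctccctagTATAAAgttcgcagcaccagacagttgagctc
BTC: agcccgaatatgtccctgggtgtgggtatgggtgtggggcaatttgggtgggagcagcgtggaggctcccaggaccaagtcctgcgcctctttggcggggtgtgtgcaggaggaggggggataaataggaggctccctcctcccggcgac
The 250 bases before the start were searched on both strands. The motifs were the cyclic AMP response element TGACGTCA (in 1.65% of 35116 RefSeq promoters), its shorter form TGACG, which lies inside the full element (21.2%), the AP-1 motif TGANTCA (6.57%), an NF-kB motif (0.527%) and the TATA box TATAAA (10.7%). AREG held the full element 65 bases and a TATA box 29 bases before its start. EREG held the shorter form at 125 bases and a TATA box at 32. BTC held no match to any of these letters. Of the other members, ERBB2 held an AP-1 match at 222 bases and TGFA the shorter element at 154. ERBB3 was not in the promoter table. These matches describe letters and say nothing of binding.

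The libraries held 17958558 to 20650819 counts. RIPK2, the targeted gene, had 296, 338 and 301 counts in the 22Rv1 control, 140 to 177 with gRNA 1 and 101 to 108 with gRNA 10. In PC3 it had 1191 to 1256 counts in the control, 406 to 441 with gRNA 2 and 527 to 588 with gRNA 10. In DU145 it fell from 820 to 926 counts to 199 to 274 with gRNA 2, while gRNA 10 left 670 to 723, -0.29 on the log2 scale (edgeR adjusted p = 0.0614, and 0.0141 without replicate 3 of gRNA 2). Replicate 3 was set apart from its partners in 22Rv1 gRNA 1 and in DU145 gRNA 2. Replicate 3 of 22Rv1 gRNA 1 correlated with its partners at 0.971 and 0.972 (all other pairs of that line at 0.992 or more) and had 16.65% of its counts on mitochondrial genes (Wilson interval 16.63 to 16.67%), against 0.515 to 4.69% elsewhere. Replicate 3 of DU145 gRNA 2 correlated at 0.975 and 0.978, beside 0.992 for the other pair of that group. Changes of the members against control and between guides are also given without these libraries. All 5 epithelial markers (EPCAM, CDH1, KRT8, KRT18, KRT19) were above 3 counts in every group. Their summed level was 794 to 861 CPM (counts after scaling for library size) in the 22Rv1 control, 957 to 979 with gRNA 1 and 1020 to 1050 with gRNA 10. In DU145 the sum was 864 to 914, 1570 to 2950 with gRNA 2 and 1500 to 1630 with gRNA 10, and in PC3 1300 to 1370, 1480 to 1510 with gRNA 2 and 2520 to 2700 with gRNA 10. Of markers of other cell types, the leukocyte gene PTPRC had 0 to 6 counts, the fibroblast gene DCN 0 to 2 and the endothelial gene CDH5 0 to 4. Other genes of these lists were higher. COL1A1 of the fibroblast list had 145 to 489 counts in 22Rv1, 99 to 599 in DU145 and 532 to 1157 in PC3. CD14 of the leukocyte list had 8 to 27, 8 to 62 and 3 to 21 counts in the same order. The endothelial sum in PC3, mostly KDR and PECAM1, was 3.2 to 4 CPM in the control, 22.6 to 25 with gRNA 2 and 50.5 to 56.5 with gRNA 10. In DU145 it was 0.325 to 0.743, 0.16 to 1.06 with gRNA 2 and 2.14 to 2.69 with gRNA 10, and in 22Rv1 it was at most 0.258. The fibroblast sum was 7.95 to 10.1, 13.2 to 29.8 and 24.3 to 26.1 CPM in 22Rv1, 13.6 to 14.6, 5.44 to 12 and 24.2 to 30.3 in DU145, and 30.4 to 31.8, 47.7 to 56 and 54 to 59.6 in PC3, in the order control, first guide, gRNA 10. The leukocyte sum stayed between 0.48 and 2.93 CPM in every group. The part of these markers in the changes below was not tested. Fewer cells with a transcript and less of it per cell cannot be told apart in bulk RNA.

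In the control libraries, DU145 had the most EGFR, ERBB2, EREG and ERRFI1 of the 3 lines, and 22Rv1 had the most ERBB4 and the least of every ligand. Levels between genes are compared as CPM per kilobase of exon. The length counts every annotated exon of a gene, 12521 bases for EGFR and 10321 for ERBB2, so an order between genes depends on it. ERBB2 counts may also hold reads of genes on the opposite strand, named further on. EGFR stood at 17.3 ± 0.587 in DU145 (SD, n = 3), 4.12 ± 0.448 in PC3 and 2.45 ± 0.173 in 22Rv1. ERBB2, the receptor with no ligand, was level with EGFR in DU145 (17.3 ± 0.976) and above it in PC3 (7.43 ± 0.183) and 22Rv1 (4.86 ± 0.496). ERBB3, a neuregulin receptor, was the highest receptor of 22Rv1 (8.30 ± 0.35), stood at 7.47 ± 0.203 in DU145, and was at 1.37 ± 0.117 in PC3. ERBB4, the other neuregulin receptor, was at 0.895 ± 0.21 in 22Rv1, and at 0.0227 ± 0.00394 in DU145 and 0.0301 ± 0.0048 in PC3, which is 5 to 8 counts per library. The receptors of 22Rv1 thus ran in the order ERBB3, ERBB2, EGFR, ERBB4, and those of DU145 and PC3 ended with ERBB3 and ERBB4.

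Among ligands, AREG was the highest per length in DU145 (63.9 ± 1.28) and in PC3 (64.5 ± 1.89), yet it had 4 or 5 counts per library in the 22Rv1 control (0.146 ± 0.0186 CPM per kilobase). EREG was second in DU145 (18.2 ± 0.607), 0.224 ± 0.0102 in PC3, and 0 or 1 count per library in 22Rv1. TGFA reached 13.0 ± 0.148 in PC3, 6.71 ± 0.335 in DU145 and 0.736 ± 0.128 in 22Rv1. HBEGF was at 6.13 ± 0.448 in DU145, 5.08 ± 0.579 in PC3 and 0.703 ± 0.125 in 22Rv1. BTC differed least between the lines among the ligands, from 1.14 ± 0.3 in 22Rv1 to 1.85 ± 0.144 in DU145 and 3.91 ± 0.305 in PC3. It was the highest ligand of 22Rv1 and the lowest of DU145. The inhibitor ERRFI1 exceeded every receptor in each line, at 78.8 ± 3.14 in DU145, 43.9 ± 1.01 in PC3 and 8.93 ± 0.768 in 22Rv1, where ERBB3 was within its spread.

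**Figure D1:**
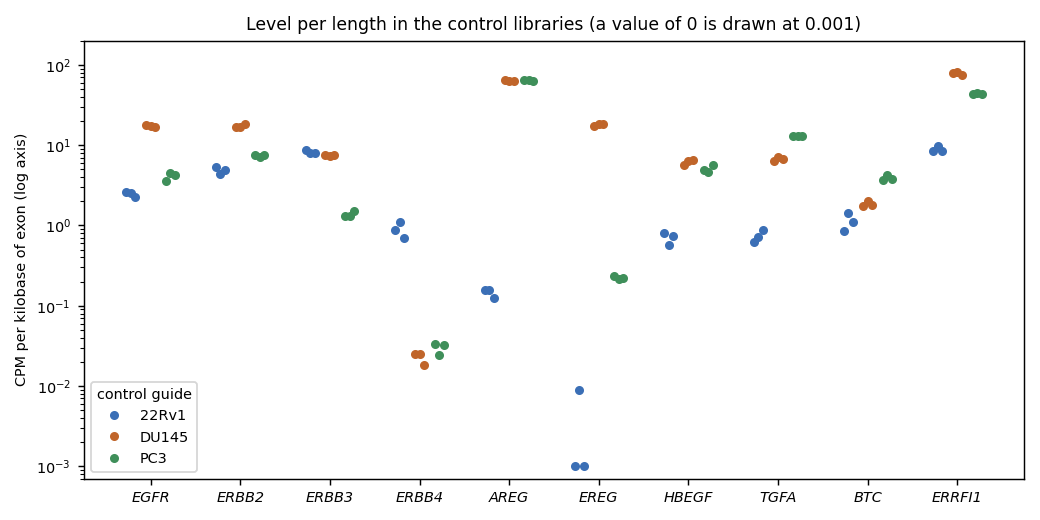
Level of each gene in the 9 control libraries, as scaled counts (CPM) per kilobase of exon on a log axis, with 1 point per library coloured by line. AREG and EREG spread most between lines, with 22Rv1 at the bottom, while ERBB4 is the gene with 22Rv1 far above both other lines.

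In edgeR's quasi-likelihood test over all 27 libraries, 9 of the 10 genes differed between the DU145 and 22Rv1 controls (8 higher and 1 lower in DU145), where 75.9% of all genes did (37.9% higher and 38.0% lower). All 10 differed between PC3 and 22Rv1 (8 higher, 2 lower; 80.5% of all genes, 39.4% higher and 41.1% lower) and 7 between PC3 and DU145 (2 higher, 5 lower; 75.9%, with 37.1% higher and 38.8% lower). With such backgrounds the counts say little about the family, and the sizes are what can be read. The median absolute log2 difference of the 10 genes was 3.13 in DU145 against 22Rv1 (0.858 over all genes), 2.72 in PC3 against 22Rv1 (1.06) and 1.02 in PC3 against DU145 (0.869). AREG was higher by a log2 difference of 8.73 (SE 0.199) in DU145 and 8.75 (SE 0.199) in PC3 than in 22Rv1, and DU145 and PC3 did not differ detectably (0.01, SE 0.107, edgeR adjusted p = 0.929). EREG was at least 669-fold higher in DU145 and at least 8.26-fold higher in PC3 than in 22Rv1, counted against a floor of 3 counts per library. ERBB4 was lower than in 22Rv1, at -5.27 (SE 0.277) in DU145 and -4.87 (SE 0.271) in PC3. ERBB3 did not pass between DU145 and 22Rv1 (-0.15, edgeR adjusted p = 0.434), but passed at -0.15 without replicate 3 of 22Rv1 gRNA 1 and of DU145 gRNA 2 (adjusted p = 0.021). HBEGF between PC3 and DU145 behaved alike (-0.27, edgeR adjusted p = 0.11, and 0.00385 without them).

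Each RIPK2 guide was then compared with the control of its line. Both guides of a line share those 3 control libraries, so their values are set side by side and not counted as 2 independent results. Of the 10 genes, 9 passed the filter on low counts in 22Rv1 (EREG had 0 to 2 counts per library), 9 in DU145 (ERBB4 had 1 to 10) and 10 in PC3. A gene rose or fell where its edgeR p, adjusted over all genes of the line, was below 0.05. In 22Rv1, 6 of 9 changed with gRNA 1 (4 rose, 2 fell; 48.5% of all genes changed, 25.6% rose and 22.9% fell) and 5 of 9 with gRNA 10 (5 rose, 0 fell; 40.6%, 20.0% and 20.6%). In DU145, 5 of 9 changed with gRNA 2 (4 rose, 1 fell; 34.0%, 17.1% and 17.0%) and 4 of 9 with gRNA 10 (0 rose, 4 fell; 40.0%, 20.2% and 19.8%). In PC3, 8 of 10 changed with gRNA 2 (6 rose, 2 fell; 63.6%, 32.1% and 31.5%) and 9 of 10 with gRNA 10 (7 rose, 2 fell; 73.5%, 37.9% and 35.6%). The members' median log2 fold change, beside that of all genes tested, was 0.22 (0.02) and 0.64 (-5.62e-06) in 22Rv1, 0.34 (0.01) and -0.16 (9.13e-04) in DU145, and 0.48 (5.85e-03) and 0.47 (8.38e-03) in PC3, the first guide first.

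Without replicate 3 of 22Rv1 gRNA 1, the log2 changes with gRNA 1 were 0.32 for ERBB2, 0.20 for ERBB3, -0.98 for ERBB4, 1.61 for BTC and 0.28 for TGFA, beside 0.44, 0.22, -1.08, 1.43 and 0.17 with it. Without replicate 3 of DU145 gRNA 2, those with gRNA 2 were 0.55 for EGFR, -0.44 for ERBB2, 0.66 for EREG, 0.83 for TGFA, 0.40 for ERRFI1, -0.13 for AREG and -0.17 for BTC. With that library they were 0.46, -0.58, 0.61, 0.84, 0.34, -0.16 and -0.19. None of these 12 values changed sign or its side of the threshold, and the members that did are given with their values below.

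**Figure D2:**
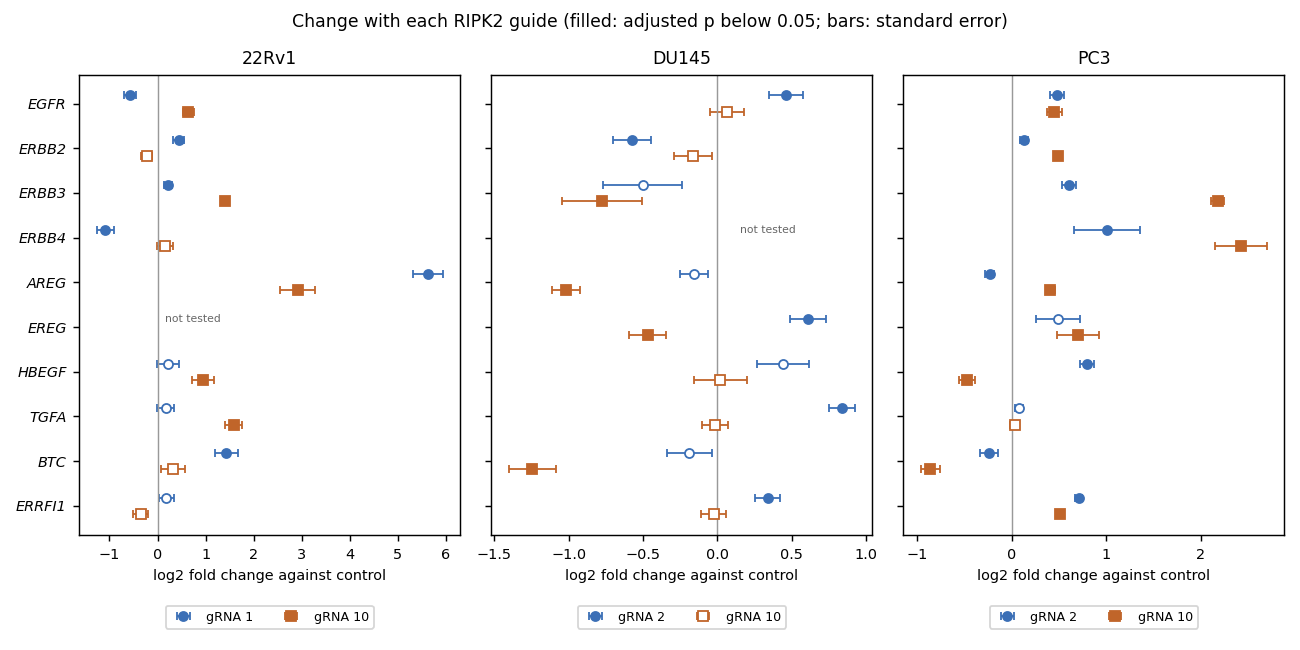
Log2 fold change of each gene against the control guide in each line, with bars for the standard error, circles for the first RIPK2 guide and squares for gRNA 10, filled where the adjusted p was below 0.05. The horizontal scale differs between lines, and AREG in 22Rv1 lies at 5.62 and 2.91, beyond every other point.

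EGFR, the receptor shared by all 5 ligands, moved in opposite directions with the guides of 22Rv1. Its level was 32.43, 31.38 and 28.27 CPM in the control, 23.03, 21.60 and 16.57 with gRNA 1, and 47.83, 50.59 and 47.30 with gRNA 10. The 3 groups did not overlap. Against the control EGFR was at -0.57 on the log2 scale with gRNA 1 (SE 0.125, edgeR adjusted p = 0.00357, and -0.45 without replicate 3) and at 0.64 with gRNA 10 (SE 0.122, adjusted p = 0.0018). In DU145 the control held 224.6, 215.9 and 210.0 CPM, gRNA 2 held 275.1, 358.0 and 260.3, and gRNA 10 held 238.3, 223.7 and 223.1. All gRNA 2 libraries were above the control (0.46, SE 0.114, edgeR adjusted p = 0.0108), and gRNA 10 overlapped with it (0.06, SE 0.114, adjusted p = 0.697). In PC3 the control held 45.3, 55.99 and 53.63 CPM, gRNA 2 held 73.03, 73.40 and 67.84, and gRNA 10 held 74.17, 72.68 and 62.62. Both knockout groups lay above the control, by 0.48 (SE 0.077, edgeR adjusted p = 7.96e-05) and 0.45 (SE 0.077, adjusted p = 0.000111). Over the 9 groups EGFR ran from DU145 gRNA 2 (298 ± 52.7 CPM) through the other DU145 groups and PC3 to 22Rv1 gRNA 1 (20.4 ± 3.39). The neighbours DU145 gRNA 10 and control, PC3 gRNA 2 and gRNA 10, and PC3 control and 22Rv1 gRNA 10 overlapped in that order.

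ERBB2 changed by less than 0.6 on the log2 scale in every population. In 22Rv1 it held 54.68, 44.60 and 51.19 CPM in the control, 62.05, 62.37 and 77.83 with gRNA 1 and 42.97, 42.91 and 44.63 with gRNA 10. It rose with gRNA 1 (0.44, SE 0.114, edgeR adjusted p = 0.00863), and with gRNA 10 its value was -0.23 (adjusted p = 0.14, or 0.0317 without replicate 3 of gRNA 1). In DU145 it fell with gRNA 2, from 173.2, 173.0 and 190.5 CPM to 142.7, 119.7 and 96.37 (-0.58, SE 0.128, edgeR adjusted p = 0.00648). With gRNA 10 it held 149.0, 173.8 and 161.3 CPM there, overlapping with the control (-0.16, edgeR adjusted p = 0.338, or 0.0162 in a fit of those groups alone). In PC3 it rose from 77.4, 74.52 and 78.07 CPM to 110.4, 100.8 and 108.1 with gRNA 10 (0.49, SE 0.0441, edgeR adjusted p = 2.63e-11). The smaller rise with PC3 gRNA 2, to 80.32, 84.25 and 84.73 CPM (0.13, adjusted p = 0.0137), was not called by DESeq2 (adjusted p = 0.0548). It was also lost without control replicate 2 (edgeR adjusted p = 0.0712), gRNA 2 replicate 2 (0.0506) or gRNA 2 replicate 3 (0.0556). ERBB2 overlaps PGAP3 and MIEN1 on the opposite strand (96 to 723 and 506 to 1266 counts). The library kit keeps the strand, but the sources used here do not say how the counting used it, so a share of those reads cannot be told apart.

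ERBB3 rose more than any other receptor with 22Rv1 gRNA 10, rose with both PC3 guides, and was lower in DU145. In 22Rv1 the control held 78.7, 73.19 and 73.23 CPM, gRNA 1 88.02, 83.35 and 87.40, and gRNA 10 200.9, 204.4 and 196.3. The gRNA 10 libraries all lay far above the control, at 1.40 on the log2 scale (SE 0.0788, edgeR adjusted p = 3.04e-07). With gRNA 1 the value was 0.22 (SE 0.078, adjusted p = 0.0399). That call was lost without a filter (adjusted p = 0.289), in a fit of those 2 groups alone (0.12), with the replicate block (0.0757) and without any 1 of 8 of the line's 9 libraries (0.059 to 0.116), gRNA 1 replicate 3 being the exception. In PC3 the control held 11.7, 11.93 and 13.63 CPM, gRNA 2 17.56, 18.87 and 19.88, and gRNA 10 57.72, 55.57 and 53.68. These groups were fully separated. The log2 change was 0.61 with gRNA 2 (SE 0.077, edgeR adjusted p = 4.48e-08) and 2.18 with gRNA 10 (SE 0.0656, adjusted p = 4.65e-23). DU145 went the other way. Its control held 68.47, 65.38 and 68.62 CPM, gRNA 10 38.42, 40.87 and 40.04, and gRNA 2 56.62, 62.00 and 23.61, the last being the library that stood apart. The change with gRNA 10 was -0.78 (SE 0.266, edgeR adjusted p = 0.0391). It was lost without a filter (0.0777) or without any 1 of the 6 control and gRNA 10 libraries (0.0785 to 0.1), while without replicate 3 of gRNA 2 it was -0.78 at an adjusted p of 2.54e-07. With gRNA 2 the value was -0.50 (edgeR adjusted p = 0.167) and -0.18 without that library (0.0545).

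ERBB4 could be followed in 22Rv1, where the control held 11.38, 14.50 and 9.063 CPM and gRNA 10 held 12.1, 13.38 and 14.09. With gRNA 1 it fell to 5.784, 5.928 and 4.555 CPM, all below the control (-1.08, SE 0.183, edgeR adjusted p = 0.000744). In PC3 it had 8, 6 and 8 counts in the control, 12, 17 and 16 with gRNA 2, and 38, 46 and 40 with gRNA 10. The rise with PC3 gRNA 10 was 2.43 (SE 0.274, edgeR adjusted p = 3.08e-09), on a level that stayed far below that of 22Rv1. The rise with gRNA 2 (1.01, SE 0.345, edgeR adjusted p = 0.0121) was not called by DESeq2 (0.0608) nor without control replicate 2 (0.0517). With PC3 gRNA 10, all 4 receptors were above their control.

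**Figure D3:**
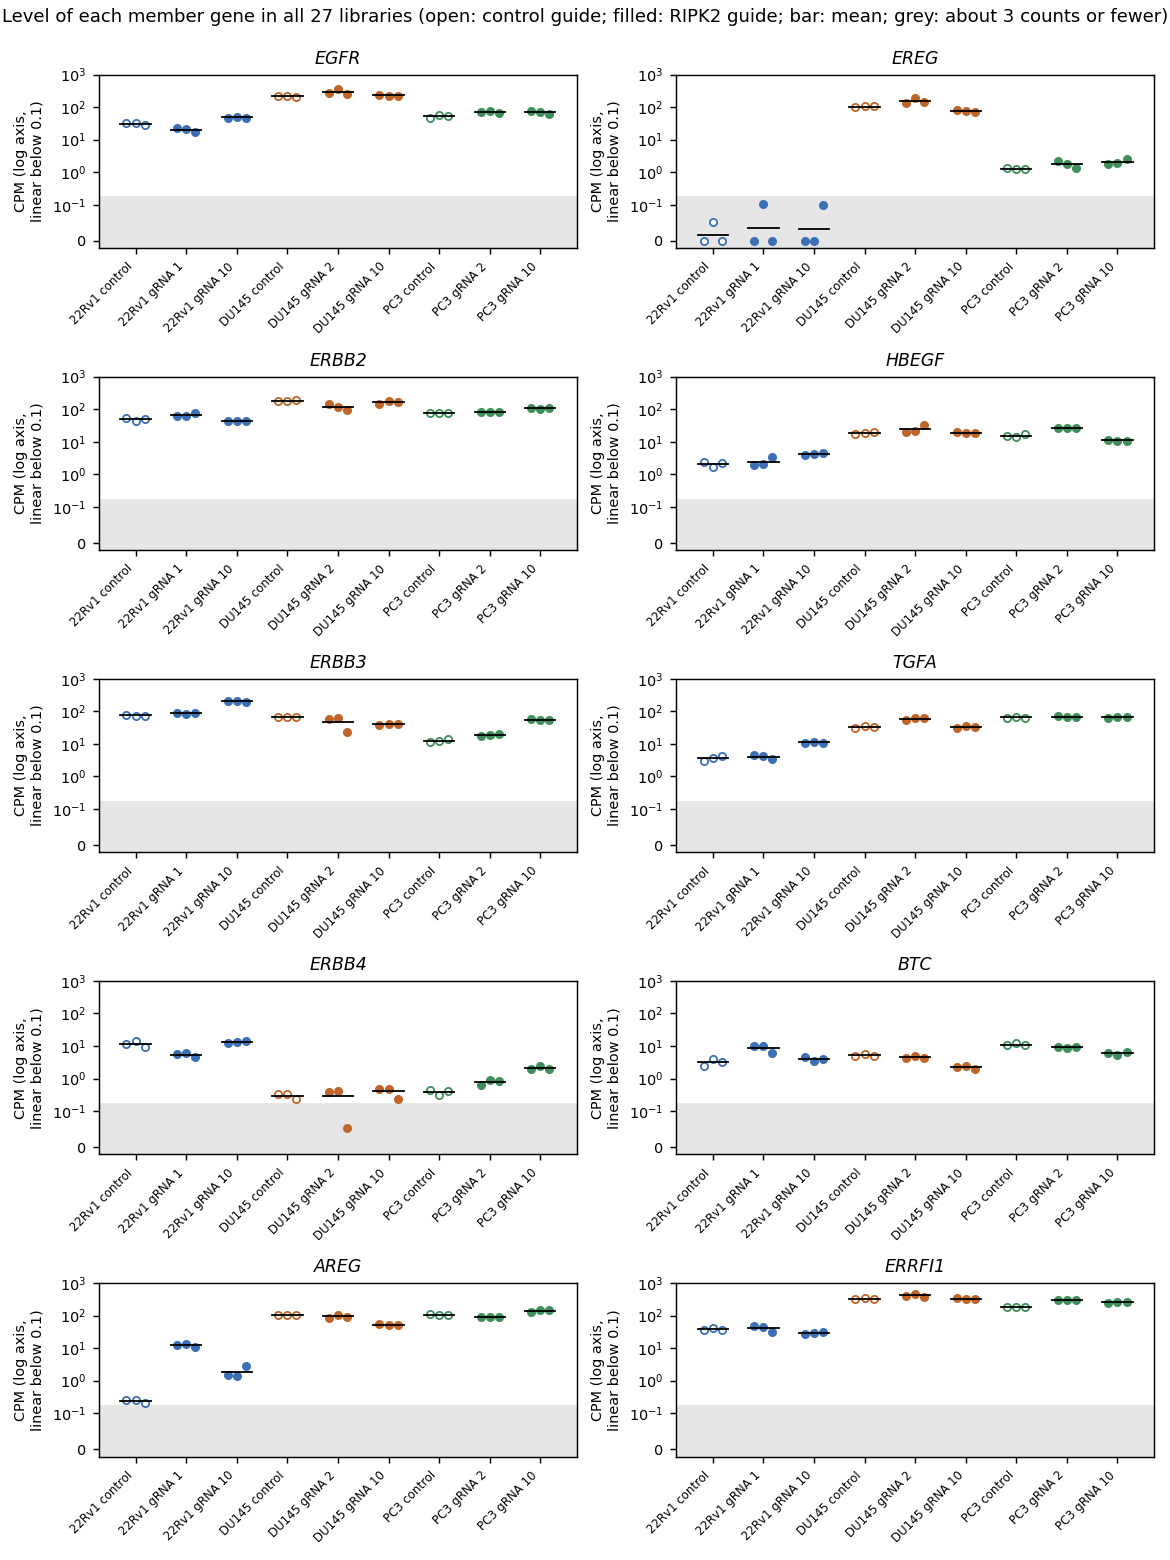
Level of each gene in all 27 libraries, in scaled counts (CPM) on an axis that is logarithmic above 0.1 and linear below it, with open points for the control guide, filled points for RIPK2 guides, a bar for the group mean and grey where a library has about 3 counts or fewer. The low points of ERBB3 and ERBB4 in DU145 gRNA 2 belong to the same library, and AREG in 22Rv1 climbs from the edge of the grey band.

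AREG, the amphiregulin gene, showed the widest change of the family. In the 22Rv1 control it had 5, 5 and 4 counts, with gRNA 1 244, 256 and 186, and with gRNA 10 29, 28 and 55. As CPM these were 0.2599, 0.2581 and 0.206, then 12.38, 13.20 and 10.59, then 1.468, 1.414 and 2.777. The 3 groups did not overlap. AREG rose by 5.62 on the log2 scale with gRNA 1 (SE 0.316, edgeR adjusted p = 3.13e-07, and 5.70 without replicate 3) and by 2.91 with gRNA 10 (SE 0.362, adjusted p = 0.000101). The sizes rest on a control of 4 or 5 counts. Even so, the gRNA 1 level was 12.1 ± 1.33 CPM, against 105 ± 2.1 in the DU145 control and 106 ± 3.12 in the PC3 control. In DU145 the control held 107.8, 104.2 and 104.1 CPM, gRNA 2 held 86.13, 105.3 and 90.45, and gRNA 10 held 56.62, 49.97 and 50.76. It fell with gRNA 10, to about 0.493 of the control (-1.02, SE 0.0948, edgeR adjusted p = 2.56e-05), and overlapped with the control under gRNA 2 (-0.16, edgeR adjusted p = 0.212, or 0.0325 without gRNA 2 replicate 2). In PC3 the control held 108.3, 107.8 and 102.6 CPM. With gRNA 2 it fell to 87.29, 92.79 and 89.09 (-0.23, SE 0.0473, edgeR adjusted p = 9.91e-05), and with gRNA 10 it rose to 128.3, 143.2 and 146.8 (0.41, SE 0.0458, adjusted p = 3.33e-09).

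EREG, which encodes epiregulin next to AREG, was at or under the floor in every library of 22Rv1, where AREG rose. It had 0 to 2 counts in all 9 libraries, under the floor of 3 counts, so no fold is given. In DU145 the control held 99.81, 105.9 and 105.7 CPM, gRNA 2 135.7, 190.3 and 146.3, and gRNA 10 81.44, 75.57 and 69.91. It rose with gRNA 2 (0.61, SE 0.122, edgeR adjusted p = 0.00388) and fell with gRNA 10 (-0.47, SE 0.122, adjusted p = 0.0114). The fall was lost without gRNA 10 replicate 3 (edgeR adjusted p = 0.0524). In PC3 it had 25, 23 and 24 counts in the control, 42, 35 and 25 with gRNA 2, and 34, 38 and 49 with gRNA 10. With gRNA 2 its value was 0.49 (edgeR adjusted p = 0.0682, or 0.0181 without replicate 3). The gRNA 10 rise of 0.70 (SE 0.224, edgeR adjusted p = 0.0063) was not called by DESeq2 (0.0509) nor without gRNA 10 replicate 3 (0.0552).

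BTC, the betacellulin gene at the end of the same row, rose with 22Rv1 gRNA 1 and fell with DU145 gRNA 10 and with both PC3 guides. In 22Rv1 the control held 2.391, 4.078 and 3.141 CPM and gRNA 1 held 9.741, 9.742 and 6.206 (1.43, SE 0.235, edgeR adjusted p = 0.000627). With gRNA 10 it held 4.555, 3.534 and 4.089 there, overlapping with the control (0.32, edgeR adjusted p = 0.323). With DU145 gRNA 10 it fell from 4.874, 5.661 and 5.101 CPM to 2.208, 2.447 and 1.997, with no overlap (-1.24, SE 0.159, edgeR adjusted p = 0.000178). With DU145 gRNA 2 it held 4.222, 5.010 and 4.424 (-0.19, adjusted p = 0.354). In PC3 the control held 10.41, 11.99 and 10.60 CPM and gRNA 10 held 6.116, 5.327 and 6.501 (-0.86, SE 0.102, edgeR adjusted p = 7.82e-09). The decrease with PC3 gRNA 2, to 9.542, 8.965 and 9.234 CPM (-0.24, edgeR adjusted p = 0.0283), was not called by DESeq2 (0.122). In edgeR it was lost without control replicate 2 (adjusted p = 0.157), gRNA 2 replicate 2 (0.0858) or gRNA 2 replicate 3 (0.0573). In DU145 gRNA 10 all 3 neighbours AREG, EREG and BTC fell, while in PC3 gRNA 10 AREG and EREG rose and BTC fell.

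TGFA, whose product TGF-alpha binds EGFR alone, rose in 1 population of 22Rv1 and 1 of DU145. In 22Rv1 the control held 3.067, 3.562 and 4.326 CPM, gRNA 1 4.566, 4.278 and 3.359, and gRNA 10 10.78, 11.76 and 10.75. Only gRNA 10 was separate from the control (1.58, SE 0.168, edgeR adjusted p = 3.29e-05). With DU145 gRNA 2 it rose from 31.66, 34.99 and 33.25 CPM to 55.27, 62.04 and 60.60 (0.84, SE 0.0863, edgeR adjusted p = 8.72e-05). With DU145 gRNA 10 it held 31.74, 35.24 and 32.49. PC3 held 64.03 to 65.47 CPM in the control, 65.37 to 71.09 with gRNA 2 and 63.42 to 66.53 with gRNA 10. It was the 1 member that passed with neither guide of PC3 (0.08, SE 0.0459, and 0.03, SE 0.046), although standard errors there were the smallest of the 3 lines.

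HBEGF, the heparin-binding ligand, moved in opposite directions with the guides of PC3. Its control held 14.65, 14.01 and 17.31 CPM, gRNA 2 held 26.95, 26.00 and 26.08, and gRNA 10 held 11.26, 10.76 and 10.82. All gRNA 2 libraries lay above and all gRNA 10 libraries below the control, at 0.79 (SE 0.0725, edgeR adjusted p = 5.53e-11) and -0.47 (SE 0.0839, adjusted p = 1.04e-05). In 22Rv1 it rose with gRNA 10, from 2.443, 1.703 and 2.214 CPM to 3.897, 4.089 and 4.493 (0.95, SE 0.226, edgeR adjusted p = 0.00659). With 22Rv1 gRNA 1 it held 1.979, 2.062 and 3.302, where the high value is the library that stood apart (0.22, adjusted p = 0.469, and -0.06 without it). In DU145 the gRNA 2 libraries held 19.86, 21.54 and 33.63 CPM against 16.94, 19.07 and 19.46 in the control. Here too the high value is the library that stood apart, and the log2 fold change was 0.44 with it (edgeR adjusted p = 0.0781) and 0.17 without it (0.147). Without replicate 1 or replicate 2 of gRNA 2 instead, the change passed (edgeR adjusted p = 0.0292 and 0.0474). DU145 gRNA 10 held 19.87, 18.35 and 18.46 CPM (0.02, adjusted p = 0.944).

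ERRFI1, the feedback inhibitor, rose in PC3 and with DU145 gRNA 2. In PC3 the control held 180.6, 188.6 and 182.1 CPM, gRNA 2 300.5, 301.1 and 291.5, and gRNA 10 248.5, 260.8 and 269.5. The groups did not overlap. ERRFI1 rose by 0.71 on the log2 scale with gRNA 2 (SE 0.0376, edgeR adjusted p = 1.83e-16) and by 0.51 with gRNA 10 (SE 0.0377, adjusted p = 2.21e-13). In DU145 it held 329.2, 343.3 and 317.0 CPM in the control, 411.9, 452.0 and 382.4 with gRNA 2, and 339.6, 319.4 and 323.0 with gRNA 10. The gRNA 2 rise was 0.34 (SE 0.084, edgeR adjusted p = 0.0112), and it was lost without control replicate 3 (0.0571). In 22Rv1 the control held 35.45, 41.09 and 35.58 CPM, gRNA 1 held 48.76, 45.56 and 31.77, and gRNA 10 held 27.68, 29.94 and 31.76. No change passed there with all libraries (0.19, edgeR adjusted p = 0.328, and -0.35, adjusted p = 0.0899). Without replicate 3 of gRNA 1, the low value, both did, at 0.34 (edgeR adjusted p = 0.00607) and -0.34 (0.00352). The gRNA 10 decrease also passed in a fit of those groups alone (edgeR adjusted p = 0.0084). With 22Rv1 gRNA 1 ERRFI1 was at 1.14 times the control level and AREG at 49.3 times.

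The 2 knockout groups of each line were also compared directly. With gRNA 10 against gRNA 1 in 22Rv1, 9 of 9 members differed (5 higher, 4 lower; 35.6% of all genes differed, 16.8% higher and 18.8% lower), gRNA 10 having more EGFR (1.21), ERBB3 (1.18), ERBB4 (1.24), TGFA (1.41) and HBEGF (0.73) and less AREG (-2.71), BTC (-1.12), ERBB2 (-0.67) and ERRFI1 (-0.53), all by edgeR. Without replicate 3 of gRNA 1 these 9 differences kept their sign and their call, in the same order at 1.10, 1.20, 1.15, 1.30, 1.02, -2.78, -1.29, -0.54 and -0.69. The calls of HBEGF and ERRFI1 were lost without either gRNA 1 replicate 1 or replicate 2 (edgeR adjusted p = 0.0766 and 0.0793 for HBEGF, 0.0635 and 0.0599 for ERRFI1). HBEGF also lost its call without gRNA 10 replicate 1 (0.0528), 2 (0.0674) or 3 (0.0889) in edgeR, and ERRFI1 without gRNA 10 replicate 1 (0.0827) or 2 (0.0629). In DU145, 7 of 9 differed (1 higher, 6 lower; 38.8% of all genes, 19.6% higher and 19.2% lower), with EREG (-1.08), BTC (-1.05), AREG (-0.86) and TGFA (-0.86) lower under gRNA 10 than under gRNA 2. Without replicate 3 of gRNA 2 they were at -1.13, -1.08, -0.89 and -0.85, with EGFR at -0.49, ERBB2 at 0.28 and ERRFI1 at -0.42 (-0.36 with it). The differences of EGFR (-0.40) and ERBB2 (0.41) in DU145 were lost in a fit of those groups alone (edgeR adjusted p = 0.0567 and 0.0685) and without gRNA 10 replicate 2 (0.0637 and 0.0919) or replicate 3 (0.0524 and 0.0711). ERBB3 there was at -0.27 with all libraries (edgeR adjusted p = 0.439) and at -0.60 without replicate 3 of gRNA 2 (1.38e-05). In PC3, 7 of 10 differed (4 higher, 3 lower; 73.4% of all genes, 36.9% higher and 36.5% lower), with ERBB3 (1.57), ERBB4 (1.42), AREG (0.64) and ERBB2 (0.36) higher and HBEGF (-1.26), BTC (-0.62) and ERRFI1 (-0.19) lower under gRNA 10. EGFR, TGFA and EREG were the members that did not pass between the PC3 guides.

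The mean effect of a line gave both guides equal weight. In DU145 the RIPK2 transcript stayed at 0.819 of the control with gRNA 10 (edgeR adjusted p = 0.0614), beside 0.279 with gRNA 2. Loss of the protein was not measured in these data. This mean effect was compared between lines in the model of all libraries. It differed in 5 members between DU145 and 22Rv1 (0 higher, 5 lower; 47.1% of all genes), in 7 between PC3 and 22Rv1 (4 higher, 3 lower; 45.3%) and in 6 between PC3 and DU145 (5 higher, 1 lower; 42.2%). AREG gave the largest difference against 22Rv1, with an effect that was lower in DU145 (-4.86, SE 0.264) and in PC3 (-4.20, SE 0.273) on the log2 scale (edgeR adjusted p = 7.92e-14 and 2.18e-12). ERBB3 was the member whose effect differed between all 3 pairs of lines along with AREG and TGFA. Its effect was lower in DU145 than in 22Rv1 (-1.44, SE 0.216, edgeR adjusted p = 5.18e-06) and higher in PC3 than in DU145 (2.01, SE 0.23, adjusted p = 1.14e-07). Between PC3 and 22Rv1 it was 0.57 (SE 0.228, edgeR adjusted p = 0.0437), a call lost without a filter (0.0596), with at least 10 counts in every library (0.0532) and without any 1 of 21 libraries (0.0501 to 0.109). The mean effect on ERRFI1 was higher in PC3 than in 22Rv1 (0.68, SE 0.128) and in DU145 (0.44, SE 0.124), lines where it did not pass with both guides. A mean over guides with values of opposite sign describes neither guide. This held for EGFR, ERBB2, ERBB4 and ERRFI1 in 22Rv1, EREG, TGFA and ERRFI1 in DU145, and AREG and HBEGF in PC3. EREG in 22Rv1 and ERBB4 in DU145 did not pass the filter of their line, so they had no fold change per guide.

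Beyond the 10 members, 49 genes of the pathway were followed in 5 lists: 6 other ligands, 6 genes of ligand shedding, 17 adaptors and members of the RAS and MAP kinase cascade, 10 genes of receptor downregulation and 10 output genes of MAP kinase signalling. In 22Rv1, 22 of 46 tested changed with gRNA 1 (12 rose, 10 fell; 47.8%, beside 48.5% of all genes) and 22 of 46 with gRNA 10 (16 rose, 6 fell; 47.8%, beside 40.6%). In DU145, 22 of 46 changed with gRNA 2 (12 rose, 10 fell; 47.8%, beside 34.0%) and 24 of 46 with gRNA 10 (12 rose, 12 fell; 52.2%, beside 40.0%). In PC3, 35 of 45 changed with gRNA 2 (15 rose, 20 fell; 77.8%, beside 63.6%) and 34 of 45 with gRNA 10 (22 rose, 12 fell; 75.6%, beside 73.5%). With DU145 gRNA 2 the number was 14 when those groups were fitted alone, and with DU145 gRNA 10 it was 15 without gRNA 10 replicate 2. Leaving out 1 library gave 15 to 31 with 22Rv1 gRNA 10 and 15 to 26 with DU145 gRNA 2.

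Among the output genes, the list holds the MAP kinase phosphatases DUSP4 and DUSP6, the Sprouty genes SPRY2 and SPRY4, the ETS factors ETV4 and ETV5, the ephrin receptors EPHA2 and EPHA4, the cyclin CCND1 and PHLDA1. Like the other 4 lists, it was chosen with earlier results of these data known, so its counts are a description and no test. With 22Rv1 gRNA 1, 7 of 10 rose and 0 fell (median log2 fold change 1.31; 25.6% of all genes rose and 22.9% fell). With 22Rv1 gRNA 10, 7 rose and 1 fell (0.69; 20.0% and 20.6%). With DU145 gRNA 2, 9 rose and 1 fell (0.62; 17.1% and 17.0%), and with DU145 gRNA 10 2 rose and 4 fell (-0.27; 20.2% and 19.8%). In PC3, 4 rose and 5 fell with gRNA 2 (-0.17; 32.1% and 31.5%), and 4 rose and 4 fell with gRNA 10 (-2.14e-03; 37.9% and 35.6%). ETV4, an ETS transcription factor, went from 7.10 ± 0.601 CPM in the 22Rv1 control (SD, n = 3) to 58.2 ± 12.5 with gRNA 1 and 26.0 ± 1.63 with gRNA 10. ETV4 thus rose by 3.05 (SE 0.165) and 1.85 (SE 0.162) on the log2 scale, at edgeR adjusted p = 2.43e-07 and 8.66e-06. In DU145 EPHA4, an ephrin receptor, rose from 0.42 ± 0.0787 CPM to 1.96 ± 0.967 and 4.97 ± 0.45 (2.23 and 3.53). DUSP4, a MAP kinase phosphatase, rose there from 0.948 ± 0.181 to 2.06 ± 0.927 and 3.72 ± 0.584 (1.13 and 1.95). The sizes rest on DU145 control libraries with 8 to 11 counts of EPHA4 and 16 to 24 of DUSP4. Without replicate 3 of gRNA 2, the changes with that guide were 2.56 for EPHA4 and 1.43 for DUSP4. The DUSP4 call with gRNA 2 was lost in a fit of those groups alone (edgeR adjusted p = 0.0619) and without any 1 of 5 libraries, the 3 controls and gRNA 2 replicates 1 and 2 (0.0566 to 0.102). SPRY2, a Sprouty inhibitor of the pathway, fell in DU145 from 48.3 ± 0.62 CPM to 32.1 ± 4.37 and 24.7 ± 0.948 (-0.58 and -0.98). EPHA4 went from 3.01 ± 0.256 CPM in the PC3 control to 2.29 ± 0.168 and 1.07 ± 0.0946 (-0.38 and -1.46). Its call with PC3 gRNA 2 (edgeR adjusted p = 0.0452) was lost in DESeq2 (0.217), without a filter (0.0752), with the replicate block (0.052) and without any 1 of the 6 libraries compared (0.0533 to 0.161).

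**Figure D4:**
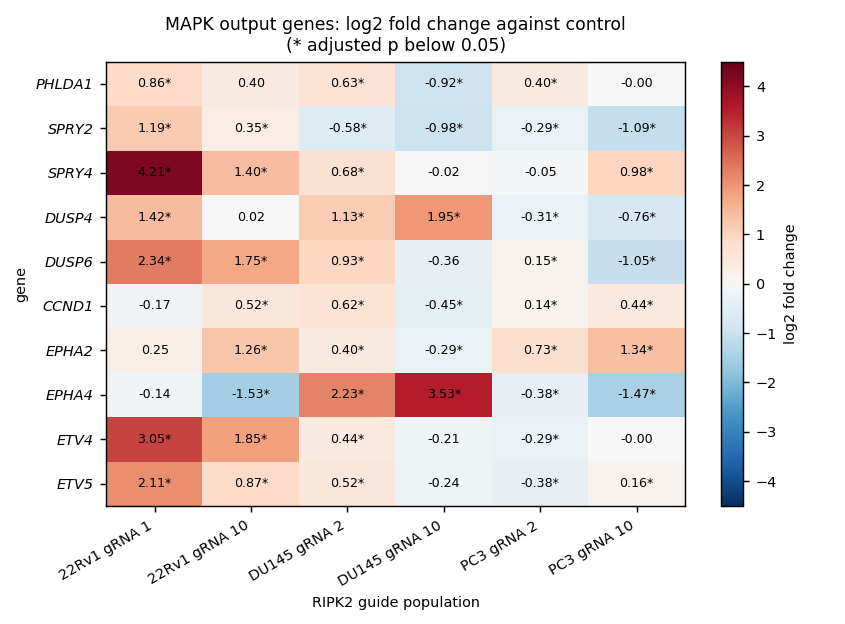
Log2 fold change of the 10 output genes of MAP kinase signalling in the 6 RIPK2 guide populations, red where higher and blue where lower than the control of the line, with a star where the adjusted p was below 0.05. The columns of 22Rv1 and of DU145 gRNA 2 are mostly red, in a list chosen with earlier results of these data known. EPHA4 runs from 3.53 in DU145 gRNA 10 to -1.53 in 22Rv1 gRNA 10. Its libraries held 8 to 11 counts in the DU145 control and 8 to 12 in 22Rv1 gRNA 10.

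Of the other ligands, EGF rose in 22Rv1, where the control had 1 or 2 counts, 15 to 22 counts were found with gRNA 1 and 6 to 15 with gRNA 10. Against the floor of 3 counts per library, the rise was at least 6.24-fold for gRNA 1 and at least 3.47-fold for gRNA 10. EPGN, next to EREG, had 2 or 3 counts in that control while gRNA 1 libraries had 20 to 47, a rise of at least 12.8-fold against that floor. With 22Rv1 gRNA 10 EPGN had 3 to 5 counts, near that floor. The neuregulin NRG3 fell in 22Rv1 with both guides (-1.01, SE 0.182, and -0.96, SE 0.18, edgeR adjusted p = 0.00114 and 0.00161). The neuregulin NRG4 fell in DU145, from 104 to 133 counts to 2 to 11 with gRNA 2 and 43 to 56 with gRNA 10 (-4.11 and -1.14, edgeR adjusted p = 1.76e-05 and 0.00413). With gRNA 2 NRG4 counts lay near the floor of 3, and the value was -4.74 without gRNA 2 replicate 1 and -3.74 without replicate 3, at 2 counts. Of receptor downregulation, SH3KBP1, an adaptor of receptor endocytosis, fell in 22Rv1 from 22.3 ± 1.31 CPM to 14.1 ± 1.88 and 11.4 ± 1.1 (-0.65 and -0.98). With 22Rv1 gRNA 1, 6 of the 10 genes of that list fell and 0 rose (median -0.57; 22.9% of all genes fell and 25.6% rose). With 22Rv1 gRNA 10, 1 fell and 1 rose (20.6% and 20.0% of all genes). In DU145, 3 fell and 1 rose with gRNA 2 (17.0% and 17.1%), and 3 fell and 2 rose with gRNA 10 (19.8% and 20.2%). In PC3, 1 fell and 5 rose with gRNA 2 (31.5% and 32.1%), and 2 fell and 4 rose with gRNA 10 (35.6% and 37.9%). LRIG1, a membrane protein that promotes receptor degradation, rose in PC3 from 1.21 ± 0.218 CPM to 3.71 ± 0.531 and 20.3 ± 0.327 (1.62 and 4.08, edgeR adjusted p = 5.41e-09 and 1.52e-22). SHC1, an adaptor that links receptors to RAS, rose in PC3 from 49.6 ± 0.967 CPM to 147 ± 2.02 and 337 ± 2.29 (1.58 and 2.78). SOS2, a RAS activator, fell there from 60.4 ± 1.31 CPM to 48.1 ± 2.23 and 32.6 ± 1.45 (-0.32 and -0.87).

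Finally, the genes whose pattern was most like those of EGFR and AREG were looked up among 16324 genes, by Pearson's r of log2 CPM over the 27 libraries after subtracting the mean of each line. The libraries of a group share their cells, so r describes the 9 groups more than 27 points, and no test was made. For EGFR these were MMD (0.92), SDC4 (0.897), which encodes a cell surface heparan sulfate proteoglycan, and CDK17 (0.895). MMD stood at 40.3 CPM in the 22Rv1 control, 19.6 with gRNA 1 and 70.0 with gRNA 10, the same order as EGFR. For AREG they were PRSS23 (0.968), CRYZ (0.95) and SPRY4 (0.934), a Sprouty gene of the output list. PRSS23, a secreted protease, stood at 9.13 CPM in the 22Rv1 control, 681 with gRNA 1 and 37.1 with gRNA 10. SPRY4 stood at 1.79, 33.0 and 4.82 CPM there, and at 442, 423 and 861 CPM in PC3 in the order control, gRNA 2, gRNA 10, where AREG held 106, 89.7 and 139.5 CPM. In DU145, in that order, SPRY4 stood at 6.38, 10.2 and 6.34 CPM and AREG at 105, 94.0 and 52.5, so they did not share an order there. In PC3, PRSS23 stood at 56.0, 66.3 and 101.5 CPM and CRYZ at 45.4, 51.6 and 53.7. Both were higher than the control with PC3 gRNA 2, where AREG was lower. AREG varied most in 22Rv1, from a control of 4 or 5 counts, and the part of that line in r was not tested.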

How the data were processed

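Total RNA from 27 samples of 22Rv1, DU145 and PC3 cells was made into strand-specific mRNA libraries and read as 150-base pairs, per the labels' protocols. For each line the authors deposited a count table, whole numbers with symbols in the first column, per the file headers. The submitters' processing notes name FastQC, STAR, edgeR and hg38 without roles or versions. The counting program, annotation, strand setting and filters are not given in the sources used here. Groups and replicate numbers came from sample titles. The table's columns were matched by library name, which numbers some replicates differently. Rows of a repeated symbol (6, 2 and 2 symbols in 22Rv1, DU145 and PC3) were summed.

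For each line, edgeR 4.0.16 (R 4.3.3) was fitted to 9 libraries with filterByExpr (minimum count 10, total 15), TMM factors, robust dispersion and the two-sided quasi-likelihood F test. This left 15198, 14908 and 14718 genes. Benjamini-Hochberg adjustment covered all genes of a comparison, with a threshold of 0.05. Differences between lines came from 1 model of 27 libraries on 16324 genes. Standard errors come from the F statistic. CPM values use TMM factors of all libraries, and lengths are union exons of GENCODE 29. A floor of 3 counts per library was used for bounds, which hold for that floor and carry no confidence level. The Wilson interval covers counting error only, at 95% confidence, because no molecular identifiers mark which reads came from 1 molecule. The likeness search used a pseudocount of 0.5 CPM. Replicate pairs differed beyond sampling noise, and no library was counted as a duplicate. The procedure was tested on simulated data.

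The genes and lists were chosen with earlier results of these data known. The text names the 10 members, RIPK2, per line and direction the 2 pathway genes changed with both guides whose smaller change was largest, and the 3 genes most like EGFR and AREG. EPGN was named after its values were seen. 1 marker result is not reported here. Alternatives were RLE factors, DESeq2 1.42.0, no filter, at least 10 counts in every library, a replicate block, only the groups compared, and leaving out each library.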

Additional observations from a re-analysis of the deposited data

Results flagged for a closer look

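The mean effect of both RIPK2 guides was compared between lines in edgeR's model of all libraries, and 18 differences of members passed the adjusted threshold of 0.05 (5, 7 and 6 in the 3 comparisons of lines). Over all genes 47.1% passed for DU145 against 22Rv1, 45.3% for PC3 against 22Rv1 and 42.2% for PC3 against DU145. Against 22Rv1, the effect in DU145 was lower by these log2 amounts: AREG -4.86, BTC -1.59, ERBB3 -1.44, ERBB2 -0.47 and TGFA -0.47. Against 22Rv1, the effect in PC3 was higher for ERBB4 (2.17), ERRFI1 (0.68), ERBB3 (0.57) and EGFR (0.41), and lower for AREG (-4.20), BTC (-1.44) and TGFA (-0.84). Against DU145, the effect in PC3 was higher for ERBB3 (2.01), ERBB4 (1.48), AREG (0.66), ERBB2 (0.66) and ERRFI1 (0.44), and lower for TGFA (-0.37). Some of these means join guides with values of opposite sign and describe neither guide. They are EGFR, ERBB2, ERBB4 and ERRFI1 in 22Rv1, TGFA and ERRFI1 in DU145, and AREG in PC3. ERBB4 in DU145 did not pass the filter of that line and had no fold change per guide. Its mean there was 0.2953 CPM in the control, 0.2862 with gRNA 2 and 0.4079 with gRNA 10. The EGFR difference was lost without 22Rv1 control replicate 1 (edgeR adjusted p = 0.0537) or PC3 control replicate 1 (0.0853). The ERBB4 difference between PC3 and DU145 rests on 1 to 10 counts per library in DU145. It was lost without DU145 control replicate 1 (edgeR adjusted p = 0.0705) or 2 (0.0703), PC3 control replicate 2 (0.0622), or both libraries that stood apart (0.0525).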

How the results depend on the processing

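Over 3094 refits of single members, 2985 kept their direction and their side of the threshold, 76 lost the call, 22 gained it and 11 changed sign, and of 353 refits of named pathway genes 15 lost the call. All reversals were of values that had not passed (log2, with the other end of the range over left-out libraries): HBEGF with 22Rv1 gRNA 1 (-0.0613 without gRNA 1 replicate 3, up to 0.345), HBEGF with DU145 gRNA 10 (-0.0421 without control replicate 1, -0.0243 without gRNA 10 replicate 1, up to 0.0562), TGFA with DU145 gRNA 10 (0.0168 without control replicate 2, 0.00632 without gRNA 10 replicate 1, down to -0.0604), ERRFI1 with DU145 gRNA 10 (0.00489 without control replicate 2, down to -0.0563), EGFR in PC3 gRNA 10 against gRNA 2 (0.0413 without gRNA 10 replicate 3, down to -0.0731), AREG in PC3 against DU145 controls (-0.0389 with the replicate block) and HBEGF in the effect of PC3 against DU145 (0.0522 without DU145 gRNA 2 replicate 3, 0.0273 without PC3 control replicate 3, down to -0.156, and 0.0514 without both libraries that stood apart, an alternative chosen after seeing the data). Counts of members changed ranged over left-out libraries from 5 to 7 with 22Rv1 gRNA 1, 5 to 7 with gRNA 10, 4 to 7 with DU145 gRNA 2, 2 to 4 with DU145 gRNA 10 (2 without gRNA 10 replicate 3), 5 to 8 with PC3 gRNA 2 (5 without control replicate 2, and 5 by DESeq2) and 8 to 9 with PC3 gRNA 10. Pathway counts ranged over left-out libraries from 20 to 26 with 22Rv1 gRNA 1, 15 to 31 with 22Rv1 gRNA 10 and 15 to 26 with DU145 gRNA 2. They ranged from 15 to 29 with DU145 gRNA 10 (15 without gRNA 10 replicate 2), 30 to 35 with PC3 gRNA 2 and 31 to 33 with PC3 gRNA 10. With DU145 gRNA 2 the pathway count was 14 when only those groups were fitted. With at least 10 counts in every library, 4 members (of 7 tested) differed in effect between PC3 and 22Rv1. All genes changed with DU145 gRNA 2 numbered 5072, but 3335 with only those groups and 3259 and 3329 without control replicate 1 or 3, and with DU145 gRNA 10 5956 became 9749 with only those groups. The causes were not tested. Libraries of a line with the same title number correlated over 0.1 in 1 of 9 pairs in 22Rv1, 0 of 9 in DU145 and 0 of 9 in PC3. The 1 pair was replicate 3 of the control and of gRNA 1 (0.339). Libraries correlated best with their own title number in 6, 5 and 8 of 18 cases, so title numbers showed no steady pairing. Library names number some replicates differently, and pairing by those numbers was not tested. The replicate block changed the count of members from 6 to 5 with 22Rv1 gRNA 1 and left the other counts of members at their values. Low counts limit AREG, EGF and EPGN in 22Rv1, EREG in PC3, NRG4 in DU145 gRNA 2 and ERBB4 outside 22Rv1. They also limit EPHA4 in 22Rv1 and DU145, and DUSP4 in DU145.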
